A study of Homo sapiens with 2 samples.

Results

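The miR-15/16 group, with miR-103 and miR-107, consists here of 9 human miRNAs, taken by name from the array as hsa-miR-15a, hsa-miR-15b, hsa-miR-16, hsa-miR-195, hsa-miR-497, hsa-miR-424, hsa-miR-503, hsa-miR-103 and hsa-miR-107. Opposite-arm (star) names were left out. The 9 stand among 718 probe names, and each had 1 probe. The cells were HepG2, a human hepatocellular carcinoma line. One array held RNA of cells given TCDD at 10 nM for 48 h, and one array held RNA of control cells. No time is labelled for the control array. TCDD, tetrachlorodibenzo-p-dioxin, is a ligand of the aryl hydrocarbon receptor, a ligand-dependent transcription factor of liver and other tissues. No genotype or other agent is labelled, and the vehicle of the control cells is not given in the sources used here.

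A miRNA guides an Argonaute protein to messenger RNAs whose 3′ untranslated region pairs with the bases near its 5′ end, called the seed, and the bound messages are repressed. The miR-15/16 family is known as a brake on cell division and survival, acting on cyclins, cyclin-dependent kinases and BCL2. miR-103 and miR-107 lie in introns of the pantothenate kinase genes, whose products start the synthesis of coenzyme A. They are known to repress DICER1, which makes miRNAs, and in mouse liver to act on insulin sensitivity.

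The mature sequences are shown because the group is defined by its 5′ end. They are RefSeq's, on GRCh38.p14, with the seed (bases 2 to 8 from the 5′ end) in capitals.
miR-15a: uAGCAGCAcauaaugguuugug
miR-15b: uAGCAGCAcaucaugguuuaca
miR-16: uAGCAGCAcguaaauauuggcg
miR-195: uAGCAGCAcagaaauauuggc
miR-497: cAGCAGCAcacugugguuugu
miR-424: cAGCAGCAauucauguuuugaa
miR-503: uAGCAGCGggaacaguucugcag
miR-103: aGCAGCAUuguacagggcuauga
miR-107: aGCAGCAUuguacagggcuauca

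The name "shared seed" held only in part. By bases 2 to 8 there were 3 seeds, AGCAGCA in 6 members, GCAGCAU in miR-103 and miR-107, and AGCAGCG in miR-503 alone. All 9 carried the letters AGCAGC, starting at base 1 in miR-103 and miR-107 and at base 2 in the others. The motif GCAGCA lay within the first 8 bases, read on the mature strand, in 8 of the members, miR-503 being the exception. It lay there in 12 of 2370 mature human miRNA names of the table (0.506%). The 4 non-members were miR-761, miR-922, miR-6838-5p and miR-4310, of which miR-922 was matched to a probe. That probe held the smallest deposited value on both arrays.

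Beyond the 5′ end the members diverged. Mature lengths were 21 to 23 bases and the share of G and C was 36.4% in miR-424 to 56.5% in miR-503. Over the 36 pairs of members, the median edit distance (substituted, added or missing bases) was 9.5, with 12 the highest. The closest pair was miR-103 and miR-107, which differ by 1 substitution, G22C (miR-103's base, the position from the 5′ end, then miR-107's base). miR-16 and miR-195 came next at an edit distance of 3, made of G10A, U11G and a last base that miR-195 lacks. miR-15a and miR-15b differ at 4 positions, A12C, G20A, U21C and G22A. The probes' own sequences were not used here, so how far the probes of such pairs share signal was not tested.

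Most of the hairpins are paired in the genome. miR-15a (chr13:50049167-50049188, minus strand) and a copy of miR-16 (chr13:50049027-50049048, minus strand) lie within DLEU2, a long non-coding RNA gene lost in many chronic lymphocytic leukaemias, with 57 bases between their hairpins. miR-15b (chr3:160404607-160404628, plus strand) and the other copy of miR-16 (chr3:160404754-160404775, plus strand) lie within SMC4, a condensin subunit gene, with 59 bases between their hairpins. The mature miR-16 of both loci has 1 sequence, so its probe cannot tell the loci apart. miR-195 (chr17:7017667-7017687, minus strand) and miR-497 (chr17:7017979-7017999, minus strand) lie within the non-coding gene MIR497HG, with 209 bases between their hairpins. On the X chromosome miR-424 (chrX:134546680-134546701, minus strand) and miR-503 (chrX:134546371-134546393, minus strand) have 215 bases between their hairpins. miR-103 is encoded within PANK3 (chr5:168560904-168560926, minus strand) and PANK2 (chr20:3917541-3917563, plus strand), again with 1 mature sequence. miR-107 lies within PANK1 (chr10:89592756-89592778, minus strand).

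Values are log2 fluorescence of a single channel. The smallest deposited value, 5.64 (a fluorescence of 50), was shared by 257 names on the TCDD array and 343 on the control array. A floor was set at 2 times that value, a fluorescence of 100 or 6.64 on the log2 scale. Above it lay 237 names on the TCDD array and 227 on the control array. A total of 242 of 718 names (33.7%) were above it on at least 1 array. Probes within 1% of an array's highest fluorescence were treated as at the top of the range and given no difference, which left 238 names to compare. Each group had 1 array, so no difference has a replicate check and no test was possible. Of the hepatocyte miRNAs, miR-192, miR-194 and miR-122a were above the floor and miR-148a was not. miR-192 was at 13.96 on the TCDD array and 13.88 in control, and miR-194 at 13.06 on the TCDD array and 12.34 in control, 1.64-fold higher. miR-122a, which dominates the miRNAs of normal hepatocytes, was dim at 7.59 on the TCDD array and 7.60 in control. Of the 5 blood, 4 muscle and 2 neural miRNAs matched to probes, none was above the floor on either array. The smooth muscle and fibroblast miRNAs miR-143 and miR-145 were both well above it on both arrays. miR-143 was at 10.36 on the TCDD array and 10.17 in control, and miR-145 at 12.42 on the TCDD array and 12.39 in control.

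The group's probes ran from the smallest deposited value to the top of the range. miR-15b and miR-16 were well above the floor and close to equal in TCDD-treated and control cells. miR-497 was 1.59-fold higher on the TCDD array from a control value at the floor. miR-107 sat at the top of the range on both arrays and miR-103 on the TCDD array, so neither has a difference. miR-15a, miR-195, miR-424 and miR-503 were under the floor on both arrays. In all, 5 of 9 members were above the floor on both arrays and 4 on neither. Over all names, 33.0% were above it on the TCDD array and 31.6% on the control array. These are shares per array, so the share above it on both arrays was at most 31.6%.

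**Figure D1:**
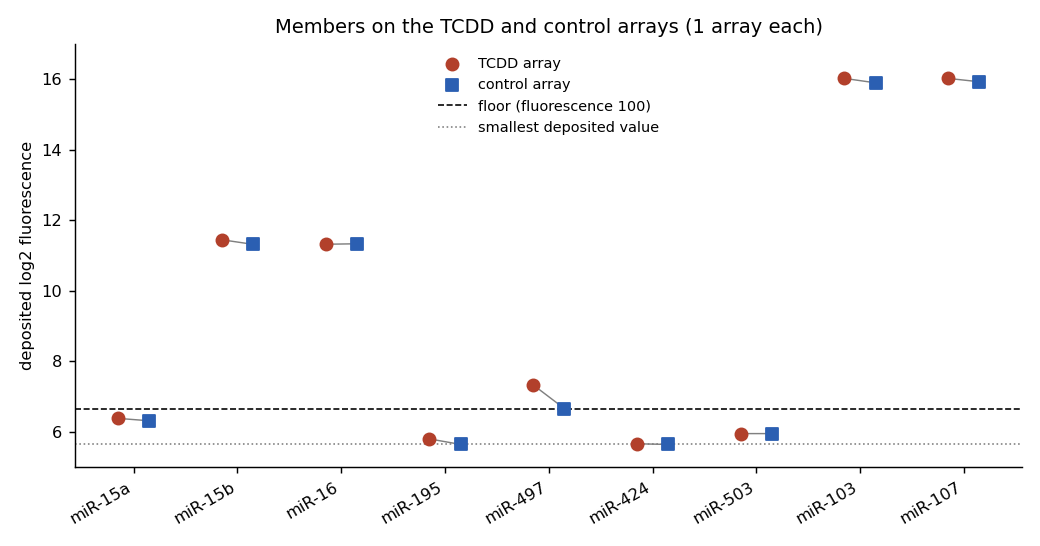
Deposited log2 fluorescence of the 9 members (vertical axis), with the TCDD array as circles and the control array as squares, 1 array each. The dashed line is the floor (a fluorescence of 100) and the dotted line the smallest deposited value; miR-103 and miR-107 lie near 16, miR-15b and miR-16 near 11.3, and 4 members lie under the floor on both arrays.

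None of the 3 members that could be compared was at least 2-fold apart. Over the 238 names compared, 2.94% (7 names) were at least 2-fold apart, 0.42% higher and 2.52% lower on the TCDD array. At 1.5-fold, 1 of the 3 members was apart, against 7.56% of all names (3.36% higher and 4.2% lower). With 3 members, neither count sets the group apart from the other probes. Their median log2 difference was 0.13, beside -0.005 over the 238 names, and the robust SD of the differences (scaled from the median absolute deviation, over names above the floor on both arrays) was 0.29. A total of 2 members had differences above 0 and 1 below.

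hsa-miR-15b, processed from the SMC4 locus, had a log2 fluorescence of 11.45 on the TCDD array and 11.32 on the control array. These are fluorescences of 2793 and 2553, a 1.09-fold difference (log2 0.13). Of the 238 names, 155 were further from 0. The human miRNA probes nearest to it over both arrays were let-7d (11.20 on the TCDD array, 11.25 in control), miR-339-5p (11.65 and 11.16) and miR-99b (11.41 and 11.59). Their differences of -0.05, 0.49 and -0.18 lay on both sides of that of miR-15b, though closeness over both arrays favours probes with a like difference. Among 15 other names above the floor on both arrays with a mean within 0.5 log2 units of miR-15b, differences ran from -1.55 to 0.60.

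hsa-miR-16, the family's best-known repressor of BCL2 and cyclins, was at 11.32 on the TCDD array and 11.33 on the control array. The fluorescences were 2558 and 2582, a 0.991-fold difference (log2 -0.01), and 229 of the 238 names were further from 0. let-7d and miR-99b were again among its 3 nearest probes, with miR-125a-5p (11.21 on the TCDD array, 11.46 in control, log2 difference -0.25). The miR-16 signal was thus almost the same on both arrays as deposited, and its sum over the DLEU2 and SMC4 loci cannot be divided.

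miR-15b and miR-16 moved by small amounts that depend on a scaling step inferred from the deposited values. On the linear scale the deposited values stepped by single units that stretched or shrank smoothly with signal. Inverting a fitted degree 2 curve of log2 signal gave estimates of the values before that step, called before scaling here. On that scale miR-15b was at 2660 units on the TCDD array and 2646 on the control array, a log2 difference of 0.008. miR-16 was at 2437 on the TCDD array and 2676 on the control array, a log2 difference of -0.13. The difference of miR-15b exceeded that of miR-16 by 0.14 on both scales, and which of them was nearer to 0 depended on the scale. Over all compared names the median on that scale was -0.08. On either scale both differences were smaller in size than 0.29, the robust SD of the deposited differences. No robust SD was computed before scaling.

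hsa-miR-497, known as a partner of miR-195 in restraining the cell cycle, was at 7.33 on the TCDD array and 6.66 on the control array. The fluorescences were 161.0 and 101.2, a 1.59-fold difference (log2 0.67) from a control value just above the floor of 100. Before scaling they were 158 and 101.8 units, a 1.55-fold difference. Only 13 of the 238 names were further from 0, and 5 had a higher difference. Among 44 other names above the floor on both arrays with a mean within 0.5 log2 units of miR-497, differences ran from -0.50 to 0.45 with a median of -0.05, all smaller in size than that of miR-497. Just above that window, miR-301b had a larger difference than miR-497, 0.71 (7.93 on the TCDD array, 7.22 in control). A further 19 names in the window were above the floor on 1 array only, so their differences are bounds. They ran from -0.49 to 0.71, and 1 of them, miR-501-5p, exceeded miR-497 (7.36 on the TCDD array, 6.50 in control, below the floor there, a difference of at least 0.71). The difference is 59.8 fluorescence units at the dim end of the scale and was measured once. With the floor added to each value before log2 it was 0.38, and with the floor raised to 4 times the smallest value miR-497 was no longer above it on either array.

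The 3 miRNA probes nearest to miR-497 were miR-936, miR-769-3p and miR-193a-5p. All 3 were also higher on the TCDD array, with differences of 0.32, 0.45 and 0.09, and closeness over both arrays favours probes with a like difference.

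hsa-miR-195 lies in the same host gene as miR-497 and is known to repress cyclin D1 and CDK6. Its probe read 5.80 on the TCDD array, and on the control array it held the smallest deposited value, 5.64. Neither value was above the floor, so the miR-497 difference had no counterpart that could be measured in its genomic neighbour. The miR-195 and miR-497 star probes held the smallest value on both arrays.

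**Figure D2:**
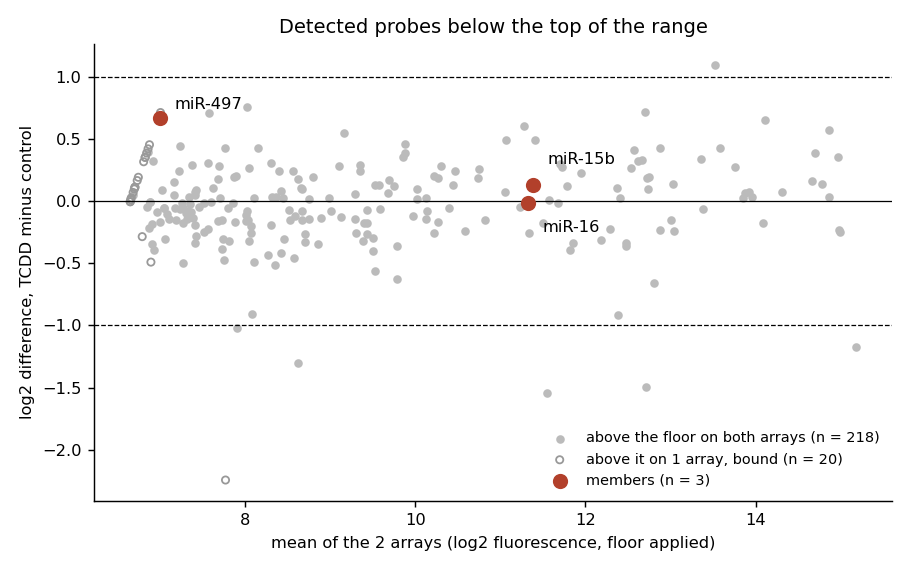
Log2 difference, TCDD minus control (vertical axis), against the mean log2 fluorescence of both arrays (horizontal axis) for the 238 detected names below the top of the range, with the 3 members as large points and 2-fold as dashed lines. Open circles are names under the floor on 1 array, whose differences are bounds; miR-15b and miR-16 lie at 0.13 and -0.01, and miR-497 at 0.67 lies near the upper edge of the dim probes.

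hsa-miR-15a, the DLEU2 partner of miR-16, was under the floor on both arrays, at 6.38 on the TCDD array and 6.31 on the control array. Its opposite arm, miR-15a*, was above the floor on both, at 7.51 and 7.22, a 1.23-fold difference (log2 0.29) at the dim end of the scale. The hairpin is shown with the opposite arm in capitals (bases 51 to 72 of 83), since this was the arm of the hairpin whose probe was above the floor.
MIR15A hairpin: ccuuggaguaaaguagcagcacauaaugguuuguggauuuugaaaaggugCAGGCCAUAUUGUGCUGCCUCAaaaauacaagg
The guide arm occupies bases 14 to 35 of this hairpin, which spans chr13:50049119-50049201 on the minus strand. Signals of different probes depend on each probe's own binding, so the arms' values do not rank the arms by amount.

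Of the 11 star-arm names listed, 7 were matched to probes, and miR-15a* was the only one of them above the floor. miR-15b*, miR-16-1*, miR-16-2*, miR-195* and miR-497* held the smallest value on both arrays, and miR-424* was at 5.80 on the TCDD array and 5.75 on the control array.

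The X-linked members, known for their rise during differentiation and for repression of cell cycle genes such as CDC25A, were not detected. hsa-miR-424 was at 5.66 on the TCDD array and 5.64, the smallest value, on the control array. hsa-miR-503 was at 5.95 on both arrays. The other miRNAs of this cluster were no brighter than the floor either. All 5 neighbours listed, miR-450a, miR-450b-5p, miR-450b-3p, miR-542-5p and miR-542-3p, were under it on both arrays, with miR-450a the highest of them at 6.52 on the TCDD array and 6.30 on the control array. Whether these miRNAs were absent or below what the probes could show cannot be told apart.

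miR-103 and miR-107 could not be compared, because miR-107 was at the top of the range on both arrays and miR-103 on the TCDD array. hsa-miR-107 read 16.02 on the TCDD array and 15.93 on the control array, which are fluorescences of 66623 and 62352. It was the highest probe of the control array and 1 unit under the highest of the TCDD array. hsa-miR-103 read 16.02 and 15.90, fluorescences of 66624 and 61065. It shared the highest value of the TCDD array with the small nucleolar RNA RNU48, and on the control array it was at 97.9% of the highest value.

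Before scaling the ceilings of the arrays nearly coincided. The highest value was 65129 units on the TCDD array and 65138 on the control array, both 99.4% of 65535, the largest number a 16-bit image can hold. On the control array the fitted steps lay 0.833 units off whole numbers, and the recovered ceiling, 65137.6 units, was off those steps. The largest miss on that array was 0.45 units, so its values before scaling are estimates. No source used here names the scanner or its image depth. The fitted curve multiplied the ceiling by 1.02 on the TCDD array and by 0.957 on the control array. The deposited ceilings were 0.10 apart on the log2 scale, and the gap of 0.10 for miR-107 was the gap between the ceilings. Before scaling miR-107 was at 65128 units on the TCDD array and 65138 on the control array, a log2 difference of -2e-04.

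miR-103 was at the ceiling of 65129 units on the TCDD array and at 63794 on the control array, 1344 units under the ceiling there. Its deposited gap of 0.13 on the log2 scale fell to 0.03, or 1.02-fold, before scaling. Since its TCDD signal was at the ceiling, that gap has no upper limit from these data. The 1-base difference between miR-103 and miR-107 lies at position 22, and the share of signal that crosses between their probes was not tested.

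The other probes at the ceiling differed in where they reached it. RNU48, often used as a reference RNA, was at 65129 units on the TCDD array and 51144 on the control array. The ambiguous probe ambi_miR_562 was at 64056 on the TCDD array and 65137 on the control array. The brightest remaining probes were miR-26a at 54.7% of the highest fluorescence on the TCDD array, and miR-191 at 89.6% on the control array. miR-107 was the only probe within 1% of the highest value on both arrays.

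**Figure D3:**
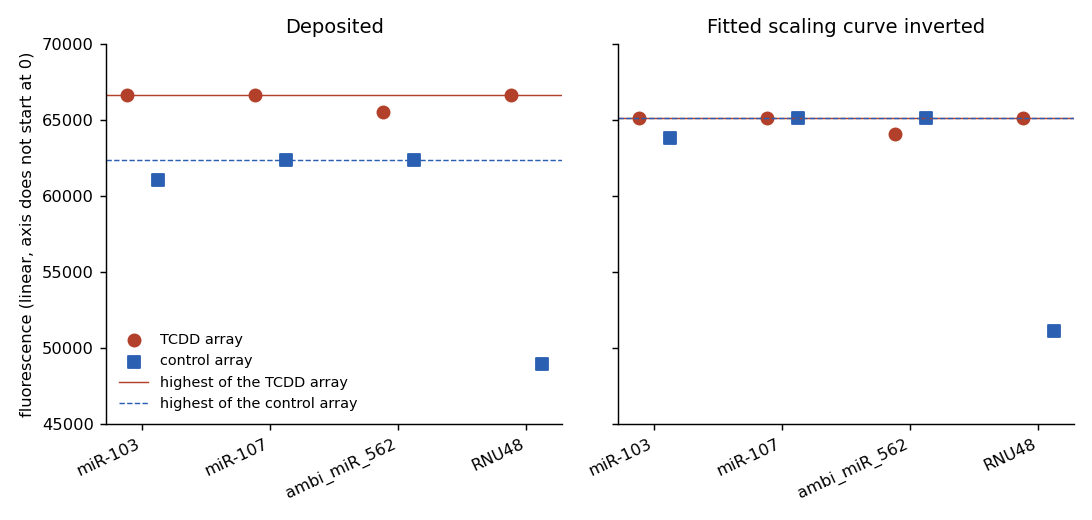
Linear fluorescence (vertical axis, starting above 0) of the 4 probes at the top of the range, as deposited (left) and with the fitted scaling curve inverted (right), with the TCDD array as circles and the control array as squares. Horizontal lines mark the highest value of each array; they are 66624 and 62352 as deposited and 65129 and 65138 with the curve inverted, where miR-107 lies on both.

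The plot of the measured members under each processing shows how far these values move. Over 8 settings miR-15b had differences of 0.008 to 0.15 and miR-16 of -0.13 to 0.007. miR-497 had differences of 0.38 to 0.71 over the 7 settings in which it was above the floor, never reaching 2-fold.

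**Figure D4:**
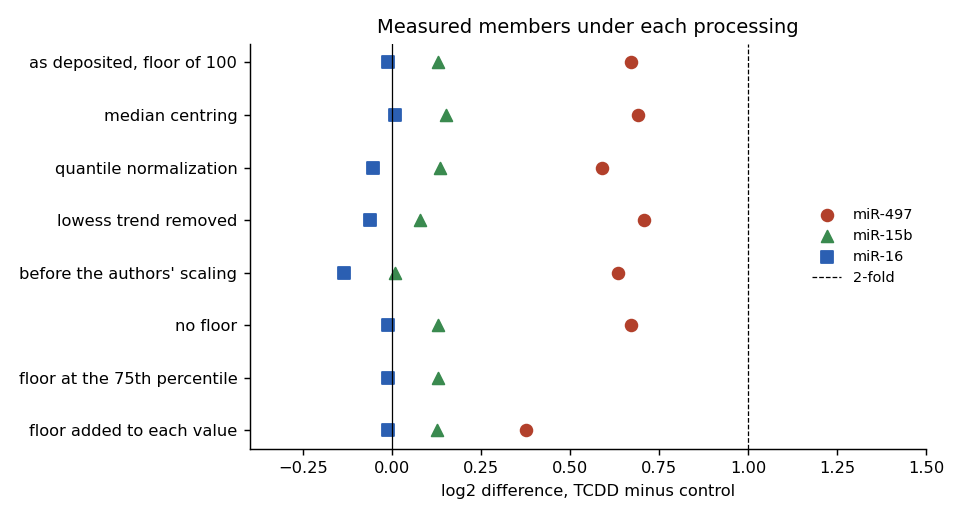
Log2 difference, TCDD minus control (horizontal axis), of miR-497 (circles), miR-15b (triangles) and miR-16 (squares) as deposited and under 7 alternatives (vertical axis), with the dashed line at 2-fold. miR-497 has no value with the floor at the 75th percentile; all values shown lie between -0.13 and 0.71.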

How the data were processed

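HepG2 small RNAs were measured on 1 array of TCDD-treated and 1 of control cells. A dye-bearing linker was ligated to total RNA, per the labels' protocols, with Cy3 named for both arrays. The second colour of each array belonged to samples outside this comparison, per the design text. The deposited values are log2 fluorescence, 1 per probe. How the authors scanned, background-corrected and scaled them is not given in the sources used here.

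Trailing probe numbers were removed from 719 probe names, and the repeated name was averaged, leaving 718. Members and lists were chosen with earlier results of these data known. Values under the floor were set to it before the log2 difference. The members, star arms, X-linked neighbours, motif-bearing miRNAs and the 3 probes nearest each compared member are named, with the top of the range and miR-122a. The window of 0.5 log2 units, used around miR-15b and miR-497, was chosen after the value of miR-497 was seen. The fitted curve reproduced 100% of 461 values above the smallest on the TCDD array and 96.5% of 375 on the control array to within 0.05 units of the grid. The control grid was offset by 0.833 units from whole numbers, against 0 on the TCDD array. Its largest miss was 0.45 units, and the control values of the probes at the top of the range were among the misses. The calculations were tested on simulated data, with changes added away from the dim end and with whole numbers bent by a known curve. That simulation did not cover changes at the dim end, clipping at the ceiling or a grid offset from whole numbers. The calculations used matplotlib 3.10.9, statsmodels 0.14.6, pandas 2.3.3, numpy 2.4.6 and scipy 1.17.1 in Python 3.11.15. Alternatives covered scaling, floor, threshold and the top of the range. Sequences and positions are from RefSeq tables of GRCh38.p14; all 9 members matched.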

Additional observations from a re-analysis of the deposited data

How the results depend on the processing

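No setting put a compared member 2-fold apart, and at a 1.5-fold threshold the count was 1 (miR-497). The median over compared members was 0.13 as deposited and ran from 0.008 before the inferred scaling to 0.15 with median centring. The count of members above the floor was 4 in place of 5 at the higher floors, with miR-497 the one lost. miR-16 changed sign with median centring, at 0.007, and its values were within 0.14 of 0 throughout. Without a floor the undetected members gave differences of 0.07 (miR-15a), 0.16 (miR-195), 0.02 (miR-424) and 1e-04 (miR-503), which rest on dim or clipped values. The median over all compared names stayed between -0.08 and 0.01 across the settings. No paired analysis was possible because the arrays, 1 of TCDD-treated and 1 of control cells, have no numbered replicates, and leaving out an array would leave no comparison.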
